A study of Mus musculus with 6 samples.

Results

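Genes of glycolysis and of the hypoxia response were read in BMSCs (bone marrow stromal cells), plastic-adherent cells able to form bone or fat, from mice with and without the microRNA miR-188. A list of 38 genes was used, in 2 arms. The first arm holds 22 genes of glucose uptake, glycolysis, pyruvate use and lactate transport, and the second holds 16 genes of the hypoxia-inducible factor (HIF) pathway and its other targets. In all, 36 of the 38 had a probe set with a single gene symbol, 20 in the glycolysis arm and 16 in the HIF arm, out of 19938 genes tested. Gpi1 and Eno1 were not analysed here, and Ero1l was read under its present symbol Ero1a.

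There were 2 groups with 3 arrays each. The WT group came from wild-type mice and the KO188 group from mice with a knockout of miR-188. All mice were 6 months old and on a C57BL/6 background. The BMSCs of both groups were kept in osteogenic medium, which drives bone formation in culture; it held 0.05 mM ascorbate-2-phosphate, 10 mM beta-glycerophosphate, 100 nM dexamethasone and 10% serum. The sources used here do not give how the allele was made, the oxygen level, the days in culture or whether each array had its own mouse. The labels call the arrays biological replicates, and p-values cover the spread between these samples alone. No label names a batch, and genotype and a culture difference shared by 1 group cannot be told apart.

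Values are log2 signals, 1 per probe set and array, and a change is KO188 minus WT on that scale, so that -1 would be a halving. Errors are SD over n = 3 arrays or the standard error (SE) of the change, and a gene was called at a limma adjusted p under 0.05 over all tested genes. Arrays correlated at r = 0.9988 to 0.9993 within groups and 0.9909 to 0.9912 between them. A level of 6.73, which 95% of 1190 vomeronasal and olfactory receptor genes did not exceed, serves as a rough guide to genes that are not expressed. Of 17 stromal markers, 14 had means above this guide, among them Col1a1, a type I collagen gene (12.90 in WT and 13.11 in KO188), while Lepr, Lum and Fap lay under it. Of 16 macrophage markers, 12 lay under it, among them the pan-leukocyte gene Ptprc (6.25 and 6.23) and Adgre1 (5.24 and 5.26), while Cd68, Cd14, Fcgr1 and Cx3cr1 lay above it. Mir188 itself read 7.15, 7.13 and 7.16 in WT and 7.03, 7.13 and 7.09 in KO188, a change of -0.06 (SE 0.034, adjusted p = 0.24). The groups overlapped. The stretch of the locus that this probe set reads is not known here, and it checks nothing about the deletion.

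Glycolysis splits glucose into pyruvate in the cytosol. Pyruvate then enters mitochondria through pyruvate dehydrogenase or is reduced to lactate and exported. When oxygen is low, the HIF alpha subunits escape hydroxylation by the Egln prolyl hydroxylases and destruction by the Vhl ubiquitin ligase, pair with Arnt and switch on genes for glucose uptake, glycolysis and lactate export. Osteoblasts are known to rely strongly on glycolysis, even where oxygen is plentiful.

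The knocked-out microRNA has 2 mature forms, which are shown because the knockout of their gene defines the KO188 group. They are from RefSeq (GRCm38.p6), written 5′ to 3′, with the seed, bases 2 to 8, in capitals.
mmu-miR-188-5p, chrX:7248031-7248051 (- strand): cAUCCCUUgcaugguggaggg
mmu-miR-188-3p, chrX:7247992-7248012 (- strand): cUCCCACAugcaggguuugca

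HIF dimers bind DNA at a short core, of which ACGTG is the best known form, so the promoters of the members were searched for ACGTG on both strands (CACGT on the strand shown). The windows, from RefSeq, ran from 250 bases before to 50 bases after each annotated start, and 32 of the 36 measured members had at least 1. Of their 46 windows, 25 held the core, or 54.3%, against 19.6% of all 32851 windows and 21.6% of those of tested genes. The members were chosen as genes of glycolysis, of the HIF pathway and of its targets, and not all are known to be induced by hypoxia. Their windows were also richer in G and C (median 62.5%) than those of tested genes (57.3%), so the share describes the list. The share was not tested against the direction of change: the core was found in 10 of 13 members that were lower in KO188, in 11 of 14 that did not pass and in 1 of 5 that were higher (Pfkfb3). The letters CACGTG, an E-box that other factors bind, hold the core on both strands. In all, 7 member windows had them (15.2%, against 7.15% of all windows and 8.24% of those of tested genes). A match is a string of letters, not a site shown to be bound.

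The 250 bases upstream of the start are printed for 5 members that fell and 1 that rose, 5′ to 3′ along the gene, with matches in capitals. Slc16a3 and Slc16a1 had the largest falls of the glycolysis arm, Ldha and Pgk1 are abundant enzymes of the pathway, and Egln3 and Adm had the largest fall and rise of the HIF arm. Where the start is annotated more than once, a window with the core is shown. The printed windows do not show how the core went with direction. Pdk1, with the next largest fall of the glycolysis arm after Slc16a1 (-0.45), is not printed and held the core in 0 of 2 windows. Pfkl and Tpi1 also fell and held none, while Pfkfb3 rose and held the core in 2 of 2 windows. Among members with windows, the core was in 10 of 13 lower, 11 of 14 uncalled and 1 of 5 higher.
Slc16a3, chr11:120948817-120949066 (+ strand): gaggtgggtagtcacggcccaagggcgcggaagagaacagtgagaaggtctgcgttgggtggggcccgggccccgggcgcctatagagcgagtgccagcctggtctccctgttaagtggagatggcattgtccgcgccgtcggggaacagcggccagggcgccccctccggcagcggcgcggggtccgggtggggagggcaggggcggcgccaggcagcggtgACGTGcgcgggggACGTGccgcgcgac
Slc16a1, chr3:104638414-104638663 (+ strand): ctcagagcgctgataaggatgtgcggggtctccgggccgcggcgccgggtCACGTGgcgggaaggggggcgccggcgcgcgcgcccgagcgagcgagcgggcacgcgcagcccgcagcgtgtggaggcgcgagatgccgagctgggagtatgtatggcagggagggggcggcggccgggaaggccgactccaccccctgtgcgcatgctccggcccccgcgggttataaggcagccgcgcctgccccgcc
Ldha, chr7:46845554-46845803 (+ strand): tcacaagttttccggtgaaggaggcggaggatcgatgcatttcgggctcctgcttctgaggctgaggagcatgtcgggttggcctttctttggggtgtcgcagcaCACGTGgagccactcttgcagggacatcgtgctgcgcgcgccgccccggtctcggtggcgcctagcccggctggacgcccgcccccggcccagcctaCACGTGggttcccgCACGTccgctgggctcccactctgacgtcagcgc
Pgk1, chrX:106186850-106187099 (+ strand): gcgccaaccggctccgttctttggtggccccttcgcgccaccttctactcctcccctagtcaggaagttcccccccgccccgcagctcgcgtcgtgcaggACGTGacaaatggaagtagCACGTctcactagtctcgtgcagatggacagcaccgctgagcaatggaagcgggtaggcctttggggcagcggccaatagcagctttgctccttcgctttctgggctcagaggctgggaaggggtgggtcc
Egln3, chr12:54203875-54204124 (- strand): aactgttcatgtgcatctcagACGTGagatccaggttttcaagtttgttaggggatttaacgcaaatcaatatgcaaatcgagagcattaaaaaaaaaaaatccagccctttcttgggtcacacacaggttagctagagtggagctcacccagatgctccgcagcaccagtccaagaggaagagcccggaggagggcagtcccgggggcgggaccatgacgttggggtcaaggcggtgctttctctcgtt
Adm, chr7:110627407-110627656 (+ strand): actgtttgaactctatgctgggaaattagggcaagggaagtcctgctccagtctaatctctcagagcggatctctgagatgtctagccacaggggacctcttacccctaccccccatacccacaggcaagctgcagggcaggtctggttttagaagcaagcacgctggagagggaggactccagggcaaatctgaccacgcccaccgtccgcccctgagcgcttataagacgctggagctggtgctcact
Ldha holds CACGTG at 2 places and a further CACGT, whereas the Adm window holds no match.

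**Figure D1:**
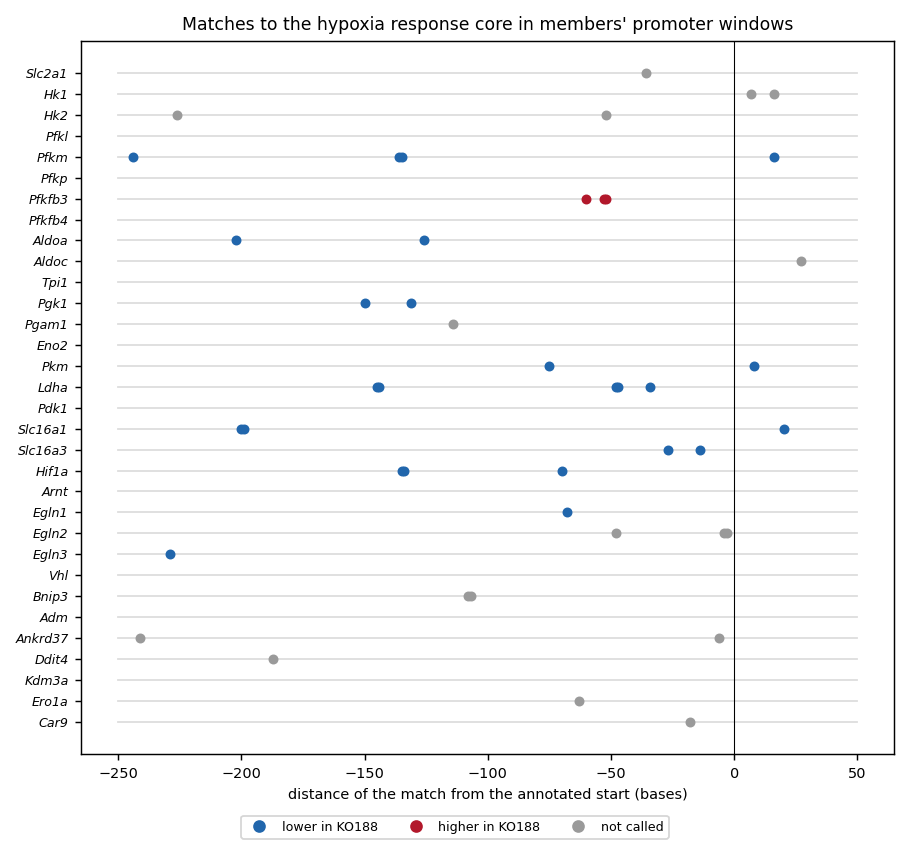
Positions of ACGTG, in either orientation, in the promoter windows of 32 members, as the distance of the first base from the annotated start in bases (grey lines run from 250 before to 50 after; all windows of a gene are overlaid). Points are blue for members lower in KO188, red for higher and grey for those that did not pass; 10 of 13 lower, 11 of 14 uncalled and 1 of 5 higher members have at least 1 point.

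In the glycolysis arm most calls were falls in KO188. Among the 20 measured members there were 10 falls and 2 rises, and 8 missed the threshold. Lower calls thus made up 50% of the arm, against 16.5% of all tested genes, and higher calls 10%, against 13.3%. That background includes many dim genes, with counts given below for both arms. The groups did not overlap in 12 members that were lower and 3 that were higher, against 22.7% and 18.8% of tested genes. The arm's median change was -0.12, beside -0.0053 over all tested genes, and 15 of 20 changes were below 0. In bulk RNA, fewer cells of a type and less RNA per cell cannot be told apart. The sizes were uneven along the pathway. Lactate transporters and the pyruvate dehydrogenase kinase Pdk1 moved most, abundant enzymes of the trunk moved by 0.27 or less, and glucose uptake genes showed no call. By mean level Tpi1 and Pgk1 lay at percentile 99.7 of tested genes, Slc16a3 at 87.5 and Pdk1 at 71.3. Whether a very bright signal limits the size of a change was not tested, so sizes may not compare across levels.

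**Figure D2:**
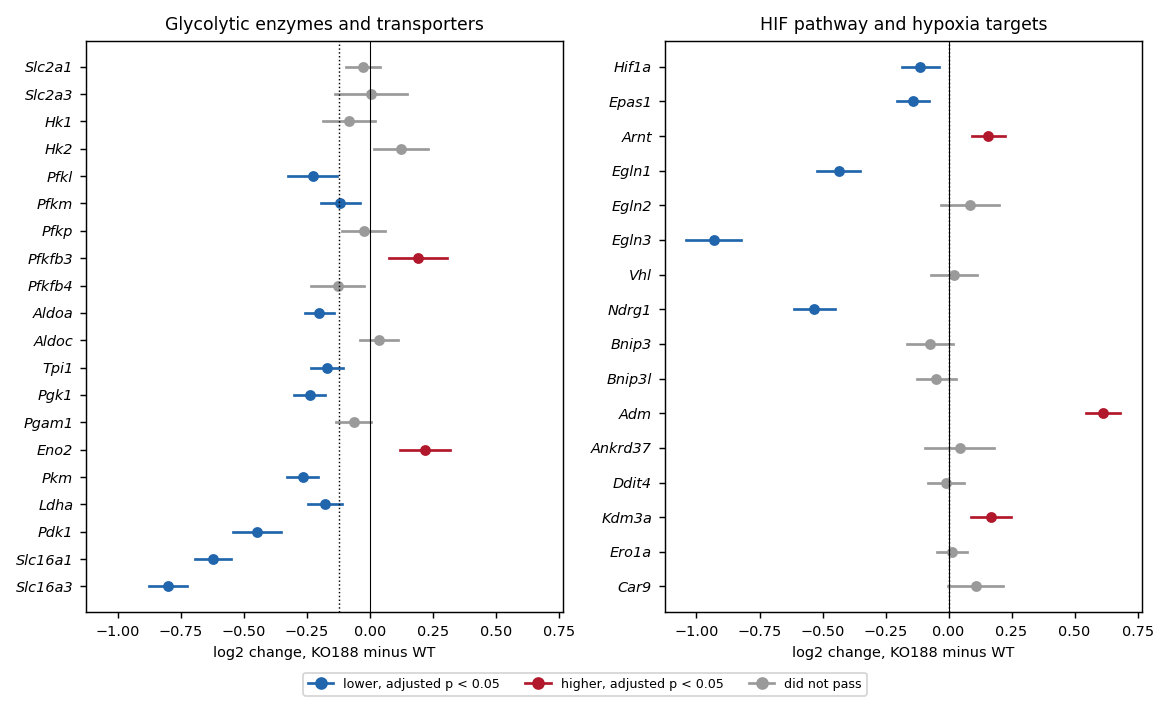
Log2 change (KO188 minus WT, points) with its 95% confidence interval from limma (lines) for the 36 measured members, in pathway order; the dotted line marks the median of each arm. The glycolysis arm lies mostly to the left of 0, with its largest falls at Slc16a3 (-0.80) and Slc16a1 (-0.62), while the HIF arm spreads from Egln3 (-0.93) to Adm (0.61).

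The largest changes of the arm were in lactate transport. Slc16a3 encodes MCT4, the exporter typical of glycolytic cells, and read 11.38, 11.38 and 11.41 in WT against 10.60, 10.63 and 10.54 in KO188. All 3 KO188 arrays lay below all WT arrays by far more than the spread within a group. The level in WT was 1.74 times that in KO188 (change -0.80, SE 0.032, adjusted p = 9.0e-06). Slc16a1 encodes MCT1, which carries lactate and pyruvate in either direction, and read 11.28, 11.24 and 11.29 in WT and 10.63, 10.68 and 10.63 in KO188. It fell by 0.62 (SE 0.030, adjusted p = 2.0e-05), again with no overlap between groups. Bsg, which encodes the chaperone that brings both carriers to the membrane, did not pass (-0.06, adjusted p = 0.11).

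The switch between lactate and mitochondrial use of pyruvate showed changes in both directions. Pdk1, a HIF target that blocks pyruvate dehydrogenase, read 9.96, 9.98 and 9.90 in WT and 9.53, 9.53 and 9.43 in KO188. Its change of -0.45 (SE 0.040, adjusted p = 0.00032) left no overlap between groups. Ldha, whose enzyme subunit favours the step from pyruvate to lactate, read 14.08, 14.04 and 14.02 in WT and 13.85, 13.89 and 13.86 in KO188, a change of -0.18 (95% interval -0.24 to -0.11, adjusted p = 0.0036). Ldhb, the other main lactate dehydrogenase gene and no member of the arm, moved the opposite way: it read 9.08, 8.97 and 8.96 in WT and 9.65, 9.59 and 9.60 in KO188, a change of 0.61 (95% interval 0.51 to 0.71, adjusted p = 8.7e-05). Outside the arm Pdp1, the phosphatase gene that reactivates pyruvate dehydrogenase, rose by 0.63 (adjusted p = 1.1e-05). Pdk4, a kinase gene that glucocorticoids and fasting induce, rose by 0.55 (adjusted p = 6.1e-05). Pdk2 rose by 0.31 (adjusted p = 0.040), a call lost with median centring and with quantile normalization. The Pdk2 call also ended when WT replicate 2 or 3 or any KO188 array was left out (adjusted p up to 0.12). Pdk3 did not pass (-0.11, adjusted p = 0.070). The dehydrogenase subunit genes Dlat (-0.22), Pdha1 (-0.17) and Dld (-0.19) fell. Pdhb (-0.02, adjusted p = 0.86) and Pdhx (0.02, adjusted p = 0.70) did not pass. Pdk4 and the genes named after it here were picked after their values were seen.

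Abundant enzymes of the trunk fell by small and similar amounts. Pkm, the pyruvate kinase gene, read 12.73, 12.76 and 12.76 in WT and 12.46, 12.50 and 12.49 in KO188 (change -0.27, SE 0.025, adjusted p = 0.00040). Pgk1, the phosphoglycerate kinase gene, read 13.53, 13.55 and 13.55 in WT and 13.29, 13.33 and 13.29 in KO188 (change -0.24, SE 0.025, adjusted p = 0.00064). Aldoa (aldolase A) fell by 0.20 from 13.41 ± 0.01 to 13.21 ± 0.02 (SD, n = 3 each; adjusted p = 0.0011), and Tpi1 (triose phosphate isomerase) by 0.17 (adjusted p = 0.0036). In each of these genes the groups were apart, with a WT level 1.12 times that in KO188 for Tpi1 and 1.18 times for Pgk1. The sizes depended on the array scaling. Tpi1 changed by -0.11 with quantile normalization and -0.21 with median centring, and Pgk1 by -0.18 and -0.28. Pgam1, the phosphoglycerate mutase gene, missed the threshold with its chosen probe set (-0.06, adjusted p = 0.16). Its other 2 probe sets, which hold the same values on these arrays, did pass when every probe set was tested (-0.09, adjusted p = 0.029). Genes of the trunk have processed copies in the mouse genome, so their signal can include related sequences; 2 of the 3 Pgk1 probe sets also hold the same values, and the third gave -0.23.

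Phosphofructokinase, which commits glucose to glycolysis, has 3 subunit genes, and these differed. Pfkl read 11.44, 11.37 and 11.47 in WT and 11.21, 11.15 and 11.25 in KO188, a change of -0.23 (SE 0.040, adjusted p = 0.0060) with no overlap. Pfkm moved by -0.12 (SE 0.033, adjusted p = 0.038), and Pfkp did not pass (-0.02, 95% interval -0.11 to 0.06, adjusted p = 0.67). The Pfkm call ended without WT replicate 1 (adjusted p = 0.085), 2 (0.057) or 3 (0.099) and without KO188 replicate 2 (0.097) or 3 (0.11). Pfkfb3 and Pfkfb4 encode enzymes that make and remove the sugar phosphate that activates phosphofructokinase. Pfkfb3 was higher in KO188, at 8.98 ± 0.05 against 8.79 ± 0.08 (SD, n = 3 each; change 0.19, adjusted p = 0.024). The adjusted p was 0.066 with median centring (change 0.15), and the call also ended when WT replicate 1 (0.087) or 2 (0.088) or KO188 replicate 1 (0.079) or 3 (0.081) was left out. Pfkfb4 was -0.13 (adjusted p = 0.075) and passed with median centring (-0.17, adjusted p = 0.039) and quantile normalization (-0.19, adjusted p = 0.028).

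Eno2, an enolase gene known from neurons, was the other member that rose. It read 8.44, 8.37 and 8.50 in WT and 8.64, 8.71 and 8.62 in KO188, so that the groups did not overlap (change 0.22, SE 0.042, adjusted p = 0.0078). Eno3, the enolase gene known from muscle and no member of the arm, fell from 11.33, 11.33 and 11.33 to 10.67, 10.59 and 10.66 (change -0.69, SE 0.031, adjusted p = 1.5e-05). The enolase genes thus moved in opposite directions, and the third, Eno1, was not analysed here.

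Entry of glucose showed no call. Slc2a1, the gene of the glucose transporter GLUT1, was 12.71 ± 0.03 in WT and 12.68 ± 0.02 in KO188 (SD, n = 3 each), and the 95% interval of its change ran from -0.09 to 0.04. Slc2a3, the gene of GLUT3, lay at 6.65 and 6.66, under the receptor guide, where changes are compressed. Hk2, an inducible hexokinase gene, was 9.69 ± 0.06 and 9.81 ± 0.06, and its groups did not overlap, but the change of 0.12 did not pass (adjusted p = 0.086). Without WT replicate 3 it passed (0.16, adjusted p = 0.0498), and so did it with dimmer genes left out of the adjustment (adjusted p = 0.027). The main hexokinase gene Hk1 depended on the probe set: the brighter, used here, gave -0.08 (adjusted p = 0.22), while the other gave 0.15 when every probe set was tested (adjusted p = 0.0050). The annotation ties the brighter to 1 accession, which is no RefSeq mRNA, and the other to 8 that include one, so the direction of Hk1 was not settled. Aldoc, the aldolase gene known from brain, did not pass (0.04, adjusted p = 0.47).

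**Figure D3:**
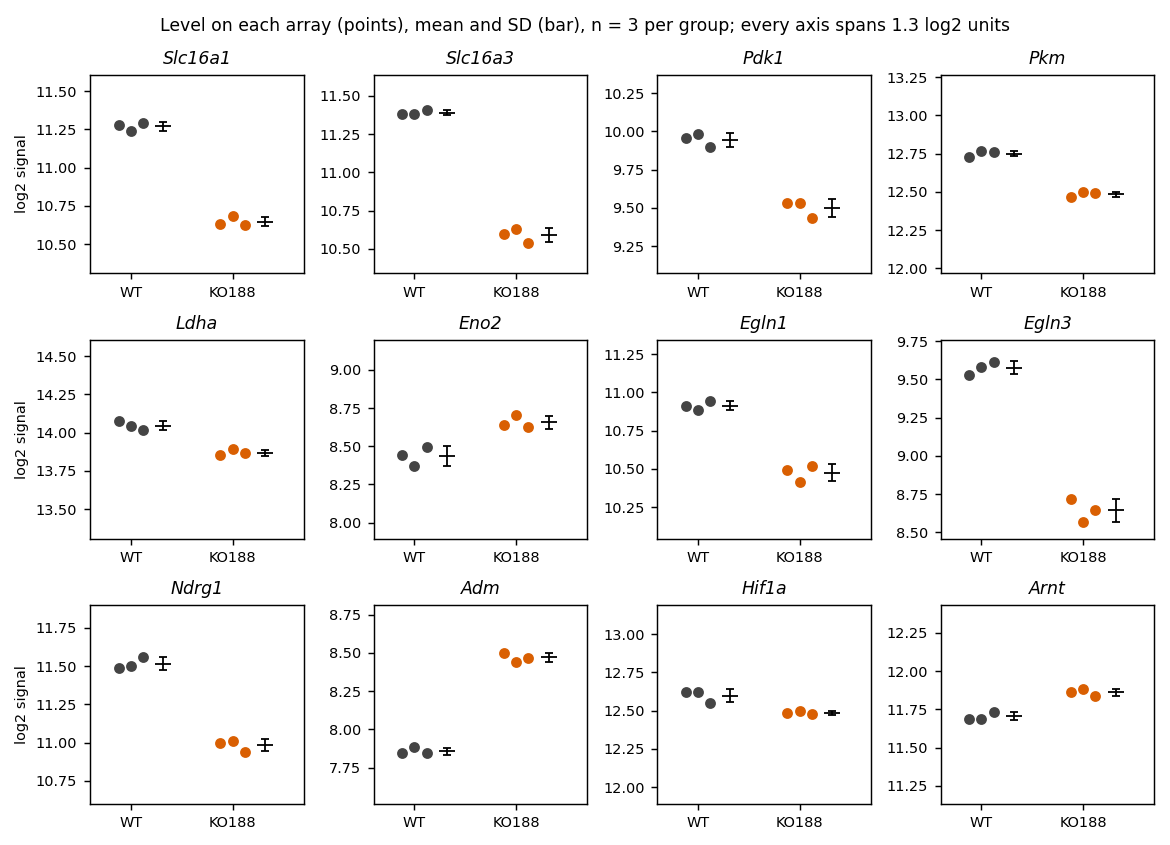
Log2 signal of 12 members on each of the 3 WT (grey) and 3 KO188 (orange) arrays, with the mean and SD (n = 3) beside them; each vertical axis spans the same range, so distances compare between panels. The 12 were chosen from the 20 called members. Their groups do not overlap, with the widest gap at Egln3 (9.58 against 8.64) and the narrowest at Hif1a (12.60 against 12.48). Among all 36 measured members the groups did not overlap in 17 lower and 7 higher, against 22.7% and 18.8% of tested genes.

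The HIF arm had large changes in both directions. Among the 16 measured members there were 5 falls and 3 rises, and 8 missed the threshold, so that lower calls made up 31.2%, against 16.5% of tested genes, and higher calls 18.8%, against 13.3%. Its median change was 0.0012, a value that turned negative in 8 of 13 alternatives (down to -0.043 with median centring), with 8 changes above and 8 below 0, and the groups did not overlap in 5 lower and 4 higher members, against 22.7% and 18.8% of tested genes. Both arms together had 20 of 36 members called, or 55.6%, against 29.8% of all tested genes. This background holds many dim genes: 6063 of 19938 tested genes lay under the receptor guide, against 2 of 36 members. With the dimmer 50% of genes left out, 3623 of the genes kept were lower and 2594 higher. In that fit 5 HIF members were lower and 3 higher, and 11 and 3 glycolysis members. Brighter genes were thus called more often than the background shares show, and members were not compared with genes of like level.

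The oxygen sensors differed between paralogs. Egln3 encodes a prolyl hydroxylase that HIF itself induces, and read 9.53, 9.58 and 9.61 in WT and 8.72, 8.57 and 8.65 in KO188. Its level in WT was 1.91 times that in KO188 (change -0.93, SE 0.045, adjusted p = 2.1e-05), the largest change of either arm. Egln1, which encodes the main hydroxylase of HIF alpha in normal oxygen, read 10.91, 10.89 and 10.94 in WT and 10.49, 10.42 and 10.52 in KO188 (change -0.44, SE 0.036, adjusted p = 0.00020). Both genes had all KO188 arrays below all WT arrays. Egln2, the paralog not known to be induced by hypoxia, did not pass although its groups did not overlap: it was 9.79 ± 0.09 in WT and 9.88 ± 0.01 in KO188, with a 95% interval of -0.03 to 0.20. Vhl, the gene of the ubiquitin ligase subunit that binds hydroxylated HIF, did not pass either (0.02, 95% interval -0.07 to 0.11). Hif1an, outside the list, encodes a further oxygen sensor, which blocks the coactivator contact of HIF, and rose by 0.27 (adjusted p = 0.0045).

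The transcription factor genes changed little. Hif1a read 12.62, 12.62 and 12.55 in WT and 12.48, 12.50 and 12.48 in KO188, a change of -0.11 (SE 0.030, adjusted p = 0.032). This call ended without WT replicate 1 (adjusted p = 0.10) or 2 (0.097), without KO188 replicate 1 (0.070), 2 (0.061) or 3 (0.086), and with quantile normalization (-0.07, adjusted p = 0.15). Epas1, which encodes the HIF-2 alpha subunit, read 8.19, 8.22 and 8.17 in WT and 8.05 on all 3 KO188 arrays (change -0.14, SE 0.026, adjusted p = 0.0071). Arnt, the gene of their shared partner, read 11.69, 11.69 and 11.73 in WT and 11.86, 11.88 and 11.84 in KO188, and rose by 0.16 (SE 0.027, adjusted p = 0.0055). HIF alpha is controlled mostly at the protein level, which was not measured.

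Hypoxia targets outside glycolysis split. Ndrg1, a stress-induced gene of growth arrest, read 11.49, 11.50 and 11.56 in WT and 11.00, 11.01 and 10.94 in KO188, and fell by 0.53 (SE 0.034, adjusted p = 6.9e-05). Adm encodes the vasodilator peptide adrenomedullin, read 7.84, 7.88 and 7.85 in WT and 8.50, 8.44 and 8.47 in KO188, and rose 1.53-fold (change 0.61, SE 0.028, adjusted p = 1.7e-05). The groups of both genes were far apart, in opposite directions. Kdm3a, a histone demethylase gene, rose from 9.90 ± 0.02 to 10.07 ± 0.05 (SD, n = 3 each; change 0.17, adjusted p = 0.0090), a call that ended with median centring (0.12, adjusted p = 0.055).

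The other targets of the arm did not pass. Bnip3 (-0.07, adjusted p = 0.21) and Bnip3l (-0.05, adjusted p = 0.33) encode receptors for removal of mitochondria, and each had a second probe set that did not pass either. Ddit4, an inhibitor gene of mTOR signalling, was at 10.21 ± 0.03 in WT and 10.20 ± 0.03 in KO188, with a 95% interval of the change from -0.08 to 0.06. Ero1a, which encodes an oxidase of protein folding, was at 12.05 and 12.06 (interval -0.05 to 0.07). Ankrd37, a strongly hypoxia-induced gene in other cells, was at 7.59 ± 0.04 and 7.63 ± 0.11, with KO188 replicate 3 the highest array at 7.76. Car9, the carbonic anhydrase gene often used as a hypoxia marker, was dimmer than the receptor guide in WT (6.34) and KO188 (6.45) and passed only without WT replicate 2 (0.15, adjusted p = 0.0496).

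**Figure D4:**
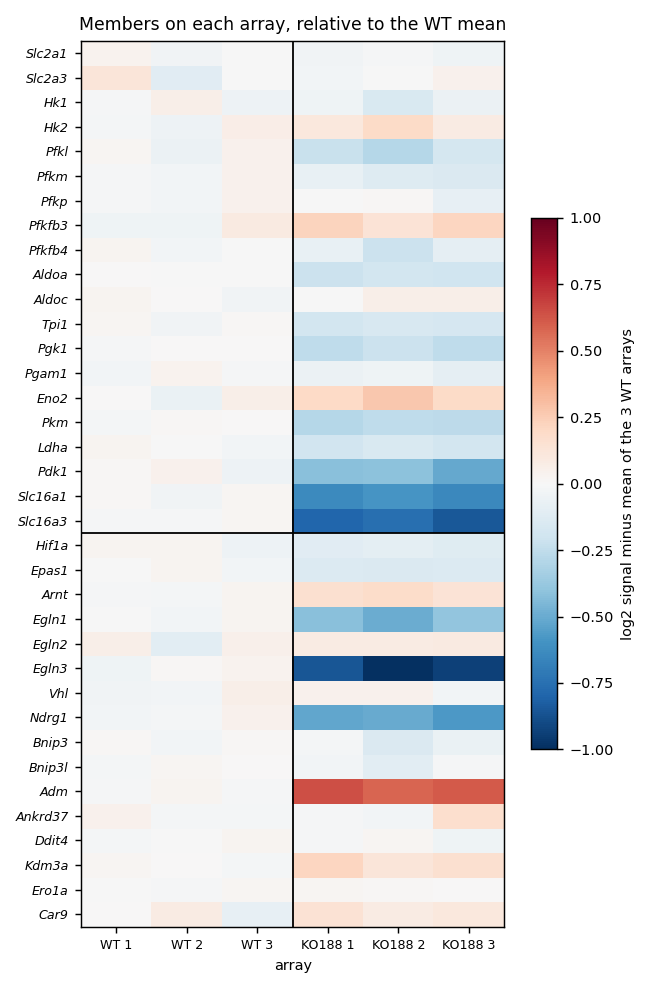
Log2 signal of the 36 members on each array minus the mean of the 3 WT arrays, from -1 (blue) to 1 (red); the horizontal line parts the glycolysis arm (above) from the HIF arm (below). The KO188 arrays are alike in the rows of Slc16a3, Slc16a1, Egln3 and Ndrg1 (blue) and Adm (red).

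Further genes of these pathways were read from 6 lists, with calls beside the same background of 16.5% lower and 13.3% higher. That background, 3294 lower and 2643 higher of 19938 genes, holds for the main fit alone. With median centring 4505 genes were lower and 2007 higher, and with quantile normalization 3920 and 2515. Counts given for these 2 scalings are to be read beside those. With the dimmer 50% of genes left out, 3623 of the genes kept were lower and 2594 higher. Of 30 other glycolysis and pyruvate genes 8 fell and 4 rose (13 and 3 with median centring, 11 and 3 with quantile normalization). The falls included Bpgm, a mutase gene of a side route (-0.31, adjusted p = 0.048), whose call was lost without any 1 array (adjusted p up to 0.13). Of 21 genes of the pentose phosphate route and other branches 7 fell and 0 rose by limma's test (1 was higher at an unadjusted p under 0.05; 10 fell and 0 rose with median centring): Gfpt1, the first enzyme gene of hexosamine synthesis, fell by 0.84, and Gpd2, of the glycerol phosphate shuttle, fell by 0.51. Of 9 gluconeogenesis genes 2 rose, Pck2 (0.14) and Pcx (0.12), and 0 fell (2 were lower at an unadjusted p under 0.05), but with median centring 0 rose and 2 fell, so the list has no settled direction. Pcx also lost its call when WT replicate 1 or 2 or any KO188 array was left out and with the replicate number as a block (adjusted p up to 0.15).

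Other hypoxia-induced genes had calls in both directions: of 38 measured, 10 fell, 13 rose and 15 did not pass. The largest falls were Tfrc (-0.88), the transferrin receptor gene, and Ak4 (-0.57), a mitochondrial adenylate kinase gene. Ppp1r3c, which encodes a glycogen-targeting subunit, rose by at least 0.90, set against the receptor guide, since its WT level (6.62) lay under it, and Nampt, of NAD synthesis, rose 1.54-fold. Vegfa, the angiogenic factor gene that HIF induces, did not pass (0.07, adjusted p = 0.092). With median centring 12 fell and 9 rose, so the balance of rises and falls in this list depends on the scaling. Of 17 other HIF regulators 6 fell and 4 rose (8 and 3 with median centring). Arnt2, a paralog of Arnt, fell by 0.39, Arntl, of the circadian clock, fell by 0.38, and Kat2b, an acetyltransferase gene, rose by 0.47.

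Regulators of glycolysis other than HIF included 2 genes that changed more than any member did. Of 17 measured 4 rose and 3 fell, whereas 4 rose and 5 fell with median centring and with quantile normalization, so the balance depends on the scaling. Ppargc1a, the gene of a coactivator of mitochondrial biogenesis, read 6.71, 6.60 and 6.56 in WT, under the receptor guide, and 8.43, 8.24 and 8.39 in KO188. Set against the guide, its rise was at least 1.63, or at least 3.09-fold (adjusted p = 5.7e-06). Txnip encodes an inhibitor of glucose uptake and read 10.24, 10.20 and 10.28 in WT and 11.55, 11.64 and 11.57 in KO188, a 2.54-fold rise (adjusted p = 1.3e-06). Both had all KO188 arrays above all WT arrays. Prkaa2, a catalytic subunit gene of the energy sensor AMPK, fell by 0.40 and Foxk2, a regulator of glycolytic genes, by 0.28.

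**Figure D5:**
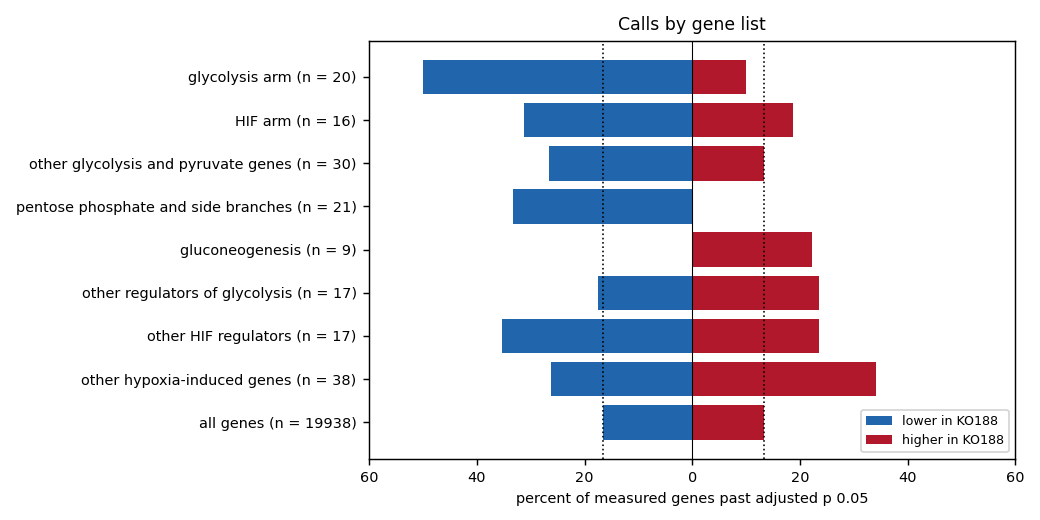
Percent of the measured genes of each list called lower (blue, to the left) or higher (red, to the right) in KO188 at a limma adjusted p under 0.05; dotted lines mark the share over all 19938 genes, 16.5% lower and 13.3% higher. The glycolysis arm reaches 50% lower and the other hypoxia-induced genes have 10 lower and 13 higher calls of 38. Of the 19938 genes, 6063 lay under the receptor guide, so the dotted lines include many dim genes.

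Markers of other cells moved with the groups as follows, and their part in these changes was not tested. Their calls are to be read beside 16.5% lower and 13.3% higher of all tested genes. The summed level of 16 macrophage markers was 10.78 to 10.81 in WT and 10.81 to 10.87 in KO188, 12 of them had means under the receptor guide, and 1 was called, Mpeg1, which read 5.72 in WT and 7.04 in KO188 (a rise of at least 0.32 set against the guide). With median centring and with quantile normalization 2 macrophage markers and 1 endothelial marker were also called lower. That of 12 endothelial markers was 10.29 to 10.33 and 10.25 to 10.32, with Kdr called, although both its means lay under the guide (6.40 and 6.63). This call was lost without any 1 WT array or KO188 replicate 1 and with the replicate number as a block (adjusted p up to 0.079). Of 11 granulocyte, 6 erythroid and 8 lymphocyte markers 0 were called by limma, and 0 had an unadjusted p under 0.05; with median centring, and with quantile normalization, 1 lymphocyte marker was called lower. The 10 adipocyte markers summed to 11.24 to 11.26 in WT and 10.79 to 10.90 in KO188, with Pparg (-1.86) and Fabp4 (-0.33) lower. The list did not fall as a whole: 6 of its 10 changes were above 0. Its median change was 0.036 (-0.0079 with median centring), and 3 markers were higher at an unadjusted limma p under 0.05. The 11 osteoblast markers summed to 14.55 to 14.56 and 14.84 to 14.86, with 5 higher (45.5%), led by Alpl (2.08), Omd (1.60) and Dlx5 (0.74), and 1 lower (9.09%). Of these 11, 4 had means under the receptor guide. The 17 stromal markers had 8 higher (47.1%) and 3 lower (17.6%). Dcn (-1.22), Pdgfra (0.87) and Nt5e (-0.85) changed most.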

How the data were processed

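Gene expression was measured in 6 RNA samples (3 WT, 3 KO188), 1 Affymetrix array each. The authors deposited log2 values for 35556 probe sets; RMA, Partek and Affymetrix Expression Console are named in the submitters' processing notes with no version, role or order. Their probe annotation and build are not named in the sources used here. Array values have no read depth, and the number of arrays limits the precision.

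Probe sets were named through GEO's platform annotation: 21789 had 1 symbol, 1621 had several and were left unnamed, and 12146 were not listed. Of those with 1 symbol, 21698 matched a RefSeq gene (GRCm38.p6) by Entrez identifier. For the 999 genes with several probe sets the one with the highest 6-array mean was used, with no filter on dim genes.

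Groups, taken from the sample titles, were compared with limma 3.58.1 (lmFit, eBayes) in R 4.3.3 on all 6 arrays, with Benjamini-Hochberg adjustment over 19938 genes and a threshold of 0.05. The fit was tested on simulated arrays. The members and lists (288 entries, of which 259 were measured) and the receptor guide were chosen with earlier results of these data known. All members were described; of each other pathway list the 2 largest rises and falls past the threshold without overlap were named, and up to 3 called markers a list. Genes beyond these, such as Bsg, Vegfa and the markers used as a check of the cell type, were picked after their values were seen. Alternatives were array scaling, a filter on dim genes, other uses of probe sets, an intensity trend, each array left out and a replicate block. Of 1677 overlapping promoter windows on opposite strands, 1677 were reverse complements. Python 3.11.15 and matplotlib 3.10.9 made the figures.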

Additional observations from a re-analysis of the deposited data

How the results depend on the processing

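Of the 20 called members, 16 kept their call in each of the alternatives they entered (13 in all) and 4 lost it in at least 1: Pfkm, Pfkfb3, Hif1a and Kdm3a. Of the 16 members that did not pass, 4 passed in at least 1 alternative, Hk2, Pfkfb4, Pgam1 and Car9. No called change turned its sign, whereas 9 members that did not pass did so in at least 1 alternative. With each array centred on its median the median change of all tested genes was -0.05, the higher calls made up 30.8% of all calls in place of 44.5% (4505 lower and 2007 higher, against 3294 and 2643), the median of the glycolysis arm was -0.17 and its higher calls went from 2 to 1, and the median of the HIF arm was -0.043. With dim genes left out the median of the HIF arm was -0.030. That median leaves out Ankrd37 and Car9, and the changes of the members kept were those of the main fit. With 1 array left out, the HIF arm's median ran from -0.0091 to 0.014, the glycolysis arm's from -0.14 to -0.097, and its higher calls from 1 to 3. The count was 1 when WT replicate 1, WT replicate 2, KO188 replicate 1 or KO188 replicate 3 was left out, and 3 for WT replicate 3; its lower calls ran from 9 to 10. Deviations from the group means correlated at r = 0.0184, 0.0102 and -0.028 between same-numbered arrays, so the numbers were not taken as pairs. With the replicate number as a block, 9 glycolysis and 4 HIF members were lower and 2271 and 2748 genes were higher and lower in all; Pfkm (adjusted p = 0.099) and Hif1a (0.073) lost their calls, and no other member's call changed. The causes were not tested. Low signal over background limits Slc2a3 and Car9, where differences shrink.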
